A study of Rattus norvegicus with 8 samples.

Results

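The genes described are 4 genes of the neurotransmitter release machinery, Snap25 (ENSRNOG00000006037), Syt1 (ENSRNOG00000006426), Vamp2 (ENSRNOG00000006989) and Syn1 (ENSRNOG00000010365), and the growth cone gene Gap43 (ENSRNOG00000001528). They were taken by Ensembl identifier, and all 5 were present among the 32883 rat gene identifiers of the count table. All 5 also passed the filter on low counts that left 3073 genes for testing. RNA came from the spinal cord of Sprague Dawley rats, either 4 days after a hemisection at thoracic level 9 (4 injured libraries) or with no spinal cord injury (4 uninjured libraries). The study asked how the injury alters gene expression in cord that was not itself cut. The tissue is upper lumbar in the series title and upper spinal cord in the sample labels, and sex, age and any sham surgery are not stated. Libraries were made by CEL-Seq2, which counts transcripts by their 3′ ends, each copy carrying a random tag called a unique molecular identifier (UMI).

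Transmitter leaves a nerve terminal when a synaptic vesicle fuses with the plasma membrane. Vamp2 encodes synaptobrevin, the vesicle's own SNARE protein, which zips together with SNAP-25, encoded by Snap25, and with syntaxin on the plasma membrane, and this pull drives fusion. Syt1 encodes synaptotagmin, the calcium sensor that couples an action potential to fusion, and Syn1 encodes synapsin, which holds vesicles in the reserve cluster of the terminal. Gap43 encodes a membrane protein of growth cones and a substrate of protein kinase C, known for its rise in neurons that extend or regrow axons. In adult spinal cord the 4 release genes are expressed mainly by neurons, while Gap43 can also be expressed by glial cells.

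The release genes were lower and Gap43 was higher in injured than in uninjured cord on average, by less than the spread between libraries in most of them. In the fit across all 3073 genes that treated the 8 libraries as independent, 0 of the 5 genes passed (quasi-likelihood test of edgeR, adjusted p below 0.05 by Benjamini-Hochberg, 4 libraries in each group). In that fit 2 of the 5, Snap25 and Syn1, had an unadjusted p under 0.05, as did 441 of all 3073 tested genes (261 higher, 180 lower). DESeq2 called 1 of the 5 (Snap25), and 83 genes higher and 19 lower. It gave 12611 genes a p-value, but its own filter on low mean counts left fewer with an adjusted p. How many had one was not counted. Of the 5, limma-voom called 0, and of 3073 genes it called 48 higher and 8 lower. Injured and uninjured libraries carry the same numbers 1 to 4, and same-numbered libraries deviated together across genes. No label calls these libraries paired, so calls with the number as a block rest on a pairing read from the counts. With that number as a block, edgeR called Snap25, Syt1 and Vamp2 lower in injured than in uninjured cord, and Syn1 and Gap43 did not pass. These 3 of 5 stand against 4.56% of all tested genes called lower and 6.77% called higher with the block. Without it 0.195% were called lower and 2.28% higher. The 5 genes were chosen with earlier results of these data known, so setting them against these shares is not independent evidence.

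In bulk tissue, fewer neurons and less of a transcript per neuron cannot be told apart. The files do not pair other identifiers with gene names, so neuron and glia markers were not analysed here, and their part in these results was not tested.

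Promoter sequence is shown for the 3 release genes that the RefSeq table of assembly GRCr8 holds, to give the sequence around the start of these transcripts. Each window runs from 250 bases before to 50 bases after the annotated transcript start and is written 5′ to 3′ on the gene's strand. Capitals mark the GC box GGGCGG on either strand and, in Syn1, the cAMP response element TGACGTCA.
Vamp2 (GRCr8 chr10:54292539-54292838, plus strand): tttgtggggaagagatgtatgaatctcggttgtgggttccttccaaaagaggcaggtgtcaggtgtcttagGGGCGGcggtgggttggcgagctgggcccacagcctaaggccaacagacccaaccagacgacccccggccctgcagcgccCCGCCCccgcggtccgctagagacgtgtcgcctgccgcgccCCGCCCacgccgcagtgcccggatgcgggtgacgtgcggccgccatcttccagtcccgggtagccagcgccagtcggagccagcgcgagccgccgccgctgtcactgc
Syt1 (GRCr8 chr7:46244164-46244463, minus strand): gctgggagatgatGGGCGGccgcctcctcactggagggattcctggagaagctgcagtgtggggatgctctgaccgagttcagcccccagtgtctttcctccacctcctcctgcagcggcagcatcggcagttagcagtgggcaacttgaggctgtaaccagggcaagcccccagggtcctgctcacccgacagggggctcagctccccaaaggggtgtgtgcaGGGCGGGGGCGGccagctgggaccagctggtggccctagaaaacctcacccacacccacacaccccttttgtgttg
Syn1 (GRCr8 chrX:3725495-3725794, plus strand): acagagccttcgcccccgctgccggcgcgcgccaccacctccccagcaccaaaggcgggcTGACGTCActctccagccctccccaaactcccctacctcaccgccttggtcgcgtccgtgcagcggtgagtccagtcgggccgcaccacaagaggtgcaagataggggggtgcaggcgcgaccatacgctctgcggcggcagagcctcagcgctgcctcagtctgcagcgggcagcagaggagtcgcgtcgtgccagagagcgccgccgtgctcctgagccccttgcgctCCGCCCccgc
A GC box was present in 3 of the 3 windows, with 3 matches each in Vamp2 and Syt1, where 2 of the 3 in Syt1 abut, and 1 in Syn1. It is a common sequence, held on either strand by 33.1% of the 33469 rat promoters in the table. The full cAMP response element, which reads the same on both strands, was held by 1.83% of promoters and lay 190 bases upstream of the Syn1 start. The TATA box TATAAA (14.2% of promoters) and the left and right parts of the RE1 element, TTCAGCACC (0.356%) and GGACAG (21.7%), had no exact match in these windows on either strand, which says only that those letters are not in them. The windows held 69.3% G and C in Vamp2, 64.3% in Syt1 and 71.0% in Syn1, against a median of 51.7% over all promoters.

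**Figure D1:**
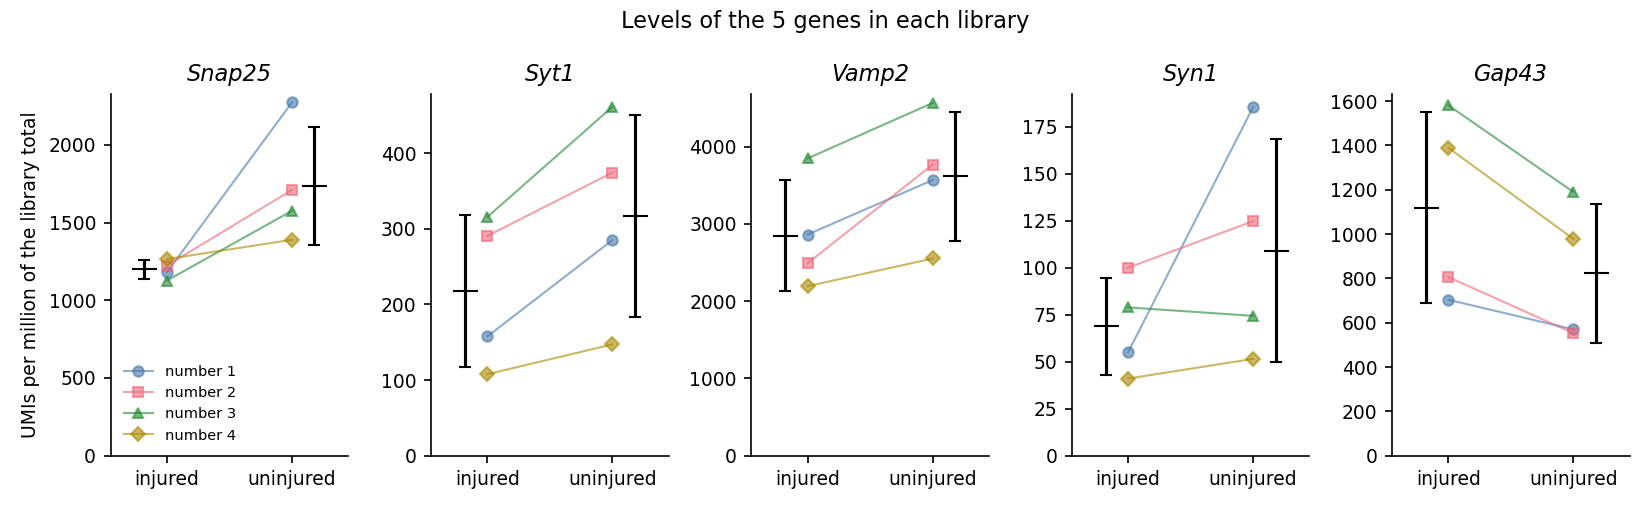
UMIs scaled to the library total, in CPM (vertical axis, from 0, its own range in each panel) for each gene in the 4 injured and the 4 uninjured libraries. Lines join libraries of the same number, and black bars give the group mean and SD. Every line of Snap25, Syt1 and Vamp2 is lower at its injured end, and every line of Gap43 is higher there.

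Snap25 is the plasma-membrane SNARE of the set. Injured libraries 1 to 4 held 1180.01, 1224, 1127 and 1266 CPM of Snap25, its UMIs scaled to the library total, against 2274, 1710.3, 1576 and 1389.8 CPM in uninjured libraries 1 to 4. The groups did not overlap, which held in this direction for 1.46% of tested genes (7.52% in the other), although the nearest libraries, injured 4 and uninjured 4, were close. Their exact 95% binomial intervals, which cover counting error only, overlapped, at 1113 to 1434 CPM in injured 4 and 1199 to 1602 CPM in uninjured 4. Injured libraries lay within 1.12-fold of each other and uninjured libraries within 1.64-fold, with uninjured 1 the highest. The means were 1199 ± 59.4 CPM in the injured libraries and 1738 ± 381 CPM in the uninjured ones (SD, n = 4 each). The log2 fold change of injured over uninjured was -0.65 without the block (SE 0.19, edgeR adjusted p = 0.0874) and -0.65 with it (SE 0.13, edgeR adjusted p = 0.00248). With the block the injured level was 0.638 of the uninjured level, with a 95% interval of 0.527 to 0.771. DESeq2 called Snap25 without the block as well (adjusted p = 0.0188).

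Vamp2, the vesicle SNARE, rested on the most UMIs of the 5, from 347 to 976 per library. It stood at 2862, 2492, 3848 and 2194 CPM in injured libraries 1 to 4, against 3567, 3768, 4565 and 2552 CPM in uninjured libraries 1 to 4. The groups overlapped, because number 3 was the highest and number 4 the lowest in both of them. The means were 2849 ± 719.7 CPM in the injured libraries and 3613 ± 828 CPM in the uninjured ones (SD, n = 4 each). Within pairs the injured library was lower in 4 of 4, at 0.802, 0.661, 0.843 and 0.8597 of its uninjured partner for numbers 1 to 4. Such a pattern was seen for 8.27% of tested genes, and the opposite, higher in 4 of 4 pairs, for 20.7%. The log2 fold change was -0.47 without the block (SE 0.24, edgeR adjusted p = 0.379) and -0.48 with it (SE 0.12, edgeR adjusted p = 0.0147). With the block and library totals as the only scaling the call was lost, at a log2 fold change of -0.34 (edgeR adjusted p = 0.0765).

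Syt1, the calcium sensor, had 158, 290.4, 315 and 108 CPM in injured libraries 1 to 4, against 285, 374, 461 and 147 CPM in uninjured libraries 1 to 4. The 4 numbers stood in the same order in both groups, with number 4 lowest and number 3 highest. The highest library exceeded the lowest 2.93-fold among injured and 3.13-fold among uninjured libraries, more than the difference between the groups. The means were 218 ± 101 CPM in the injured libraries and 317 ± 134 CPM in the uninjured ones (SD, n = 4 each). Within pairs the injured level was 0.553, 0.776, 0.684 and 0.732 of the uninjured level for numbers 1 to 4. It was lower in 4 of 4, as was the case for 8.27% of tested genes. The log2 fold change was -0.65 without the block (SE 0.35, edgeR adjusted p = 0.419) and -0.69 with it (SE 0.17, edgeR adjusted p = 0.0103). DESeq2 with the block did not call it (log2 fold change -0.69, adjusted p = 0.154).

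Syn1, the vesicle-tethering gene, was close to the limit of this depth, with 8 to 32 UMIs in injured and 7 to 41 UMIs in uninjured libraries. It measured 55.0, 99.9, 78.8 and 41.0 CPM in injured libraries 1 to 4, against 185, 125, 74.3 and 51.5 CPM in uninjured libraries 1 to 4. For the sparsest uninjured library, number 4, the exact 95% interval ran from 20.7 to 106 CPM. The groups overlapped, and uninjured 1 stood above the other seven libraries. The injured library was lower in 3 of 4 pairs, and in pair 3 the injured level was 1.06 times the uninjured one. The means were 68.7 ± 26.0 CPM in the injured libraries and 109 ± 59.4 CPM in the uninjured ones (SD, n = 4 each). The log2 fold change was -0.79 without the block (SE 0.36, edgeR adjusted p = 0.331) and -0.82 with it (SE 0.31, edgeR adjusted p = 0.0979). With the block but without pair 1 it was -0.33 (edgeR adjusted p = 0.671). At this depth a change in Syn1 was not established, and the 95% interval with the block, from 0.365 to 0.885 of the uninjured level, also holds the fitted values of the other release genes.

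Gap43, the growth cone gene, had 704, 806, 1581 and 1389 CPM in injured libraries 1 to 4, against 569.7, 552, 1189.6 and 978 CPM in uninjured libraries 1 to 4. Numbers 3 and 4 were higher than numbers 1 and 2 in both groups, so that uninjured 3 exceeded injured 1 and 2. The means were 1119.8 ± 431 CPM in the injured libraries and 822 ± 314 CPM in the uninjured ones (SD, n = 4 each). Within pairs the injured library was higher in 4 of 4, by 1.24-fold, 1.46-fold, 1.33-fold and 1.42-fold for numbers 1 to 4, as it was for 20.7% of tested genes. The log2 fold change was 0.30 without the block (SE 0.33, edgeR adjusted p = 0.739) and 0.31 with it (SE 0.13, edgeR adjusted p = 0.131), so Gap43 did not pass in either. With the block and library totals as the only scaling it passed (log2 fold change 0.44, edgeR adjusted p = 0.0332). That fit called 284 of the 3073 tested genes higher and 65 lower. The 95% interval with the block, 1.03-fold to 1.48-fold, was narrower than the interval without it, 0.764-fold to 2.0-fold.

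**Figure D2:**
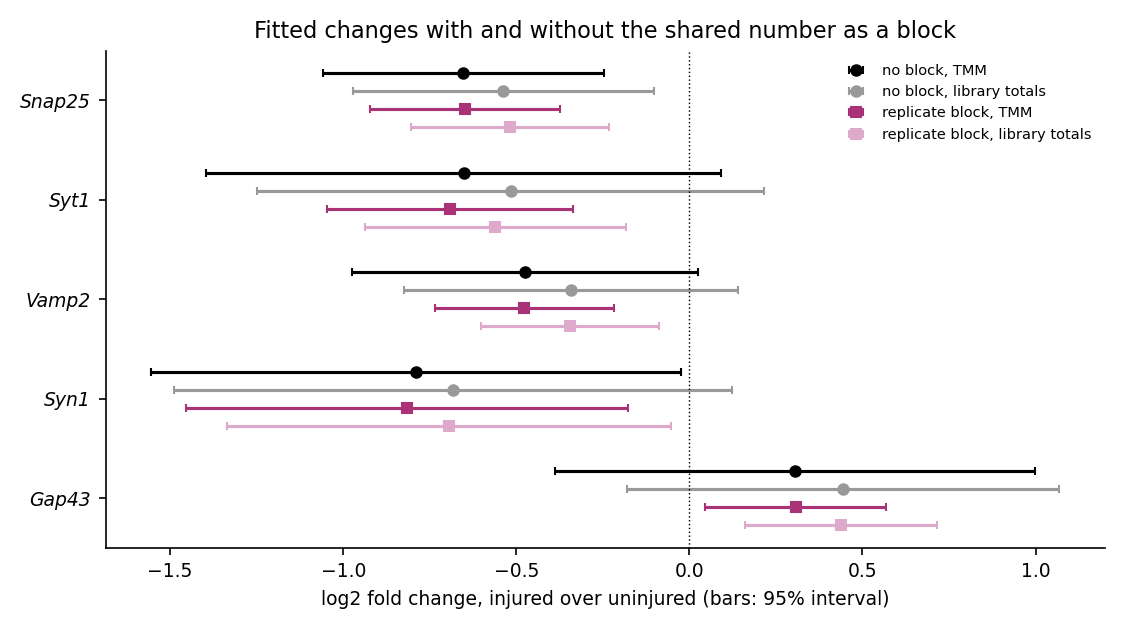
Log2 fold change of injured over uninjured (horizontal axis) for each gene from 4 edgeR fits, without and with the shared number as a block and with TMM or library totals as the scaling. Points are fitted values and bars 95% intervals. The fitted value moves little with the block, while the interval narrows for each gene, as for Gap43, where the SE was 0.13 with the block and 0.33 without it.

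The scaling shifts all genes alike and matters for how the 5 genes are read. With TMM the median log2 fold change of all tested genes was -0.03, and with library totals as the only scaling it was 0.09. Without the block, library totals gave log2 fold changes of -0.54 for Snap25, -0.52 for Syt1, -0.34 for Vamp2, -0.68 for Syn1 and 0.44 for Gap43. In that edgeR fit 0 of the 5 passed and 1 had an unadjusted p under 0.05, as did 430 of the 3073 tested genes. With the block, library totals called Snap25 (-0.52, edgeR adjusted p = 0.014) and Syt1 (-0.56, edgeR adjusted p = 0.0458) lower. The same fit called Gap43 higher (0.44, edgeR adjusted p = 0.0332). Of the 3073 tested genes it called 65 lower and 284 higher. No direction changed between the scalings. The 4 release genes showed -0.65 as their median log2 fold change without the block, beside the -0.03 of all tested genes, of which 53.5% lay below 0. In rank, 5.63% of tested genes had a lower log2 fold change than Snap25, 5.86% than Syt1, 13.2% than Vamp2, 2.70% than Syn1 and 76.9% than Gap43.

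**Figure D3:**
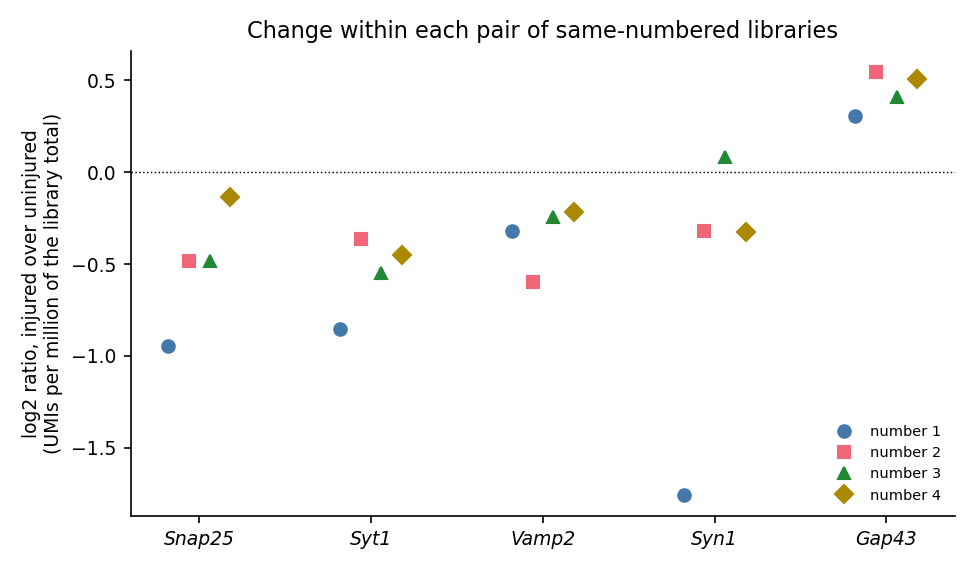
Log2 ratio of injured over uninjured CPM (vertical axis) within each pair of same-numbered libraries, for each gene. Pair 1 holds the lowest ratio of Snap25 (-0.95), Syt1 (-0.85) and Syn1 (-1.75), while pair 2 holds the lowest of Vamp2 (-0.60), and all 4 ratios of Gap43 lie between 0.30 and 0.54.

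The size of the difference varied among pairs. Snap25 in injured libraries stood at 0.519, 0.716, 0.715 and 0.911 of the uninjured level for numbers 1 to 4, so that pair 4 differed least. With the block, leaving out any 1 pair kept the call of Snap25, with edgeR adjusted p from 2.89e-05 (without pair 4) to 0.0441 (without pair 1). Syt1 lost its call without pair 1 (log2 fold change -0.61, edgeR adjusted p = 0.0916) or pair 3 (-0.68, edgeR adjusted p = 0.0733). Vamp2 lost its call without pair 2 (log2 fold change -0.38, edgeR adjusted p = 0.0571) or pair 3 (-0.50, edgeR adjusted p = 0.0803). Syn1 passed only when pair 4 was left out (log2 fold change -0.88, edgeR adjusted p = 0.0363), and Gap43 passed in none of these 4 fits.

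Injured libraries were deeper than their same-numbered partners, and totals over all libraries ran from 112264 to 320199 UMIs. After thinning every library to 112264 UMIs, the fit with the block still called Snap25 (log2 fold change -0.64, edgeR adjusted p = 0.00844), Syt1 (-0.77, edgeR adjusted p = 0.0439) and Vamp2 (-0.47, edgeR adjusted p = 0.0447) lower. No count in the table exceeded 4047, just under the number of possible tags of 6 bases, although no source used here states the tag length. The counts of the 5 genes lay well under this value, at up to 976 for Vamp2. A correction for tags shared by chance moved the log2 fold change of Vamp2 with the block to -0.44 (edgeR adjusted p = 0.0155).

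The ratio of counts of a pair of genes within a library needs no scaling to the total. Gap43 held 0.596, 0.658, 1.40 and 1.10 UMIs per Snap25 UMI in injured libraries 1 to 4, against 0.250, 0.323, 0.755 and 0.704 in uninjured libraries 1 to 4. The injured value was higher in 4 of 4 pairs, and the groups overlapped because numbers 3 and 4 were high in both. The means were 0.938 ± 0.381 in injured and 0.508 ± 0.258 in uninjured libraries (SD, n = 4 each). The ratio of Gap43 to Vamp2 was also higher in 4 of 4 pairs, at 0.246, 0.323, 0.411 and 0.633 in injured libraries 1 to 4, against 0.160, 0.147, 0.261 and 0.383 in uninjured libraries 1 to 4. Gap43 per Syt1 and Gap43 per Syn1 were likewise higher in 4 of 4 pairs, with means in injured libraries 1.98 and 1.76 times those in uninjured libraries. Scaled to library totals, Gap43 was higher and Snap25, Vamp2 and Syt1 lower in 4 of 4 pairs. The direction of their ratios therefore follows from the levels above and is no separate result. The 4 ratios also share the same Gap43 counts. Among the release genes the balance did not move to 1 side. Vamp2, Syt1 and Syn1 UMIs per Snap25 UMI were each higher in the injured library of 2 of 4 pairs. Their means were 2.40 ± 0.731 in injured and 2.13 ± 0.576 in uninjured libraries for Vamp2, and for Syt1 0.184 ± 0.0901 in injured and 0.186 ± 0.0866 in uninjured libraries (SD, n = 4 each). For Syn1 they were 0.0576 ± 0.0223 in injured and 0.0597 ± 0.0210 in uninjured libraries (SD, n = 4 each). These ratios were not tested, since the genes were chosen with earlier results known.

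**Figure D4:**
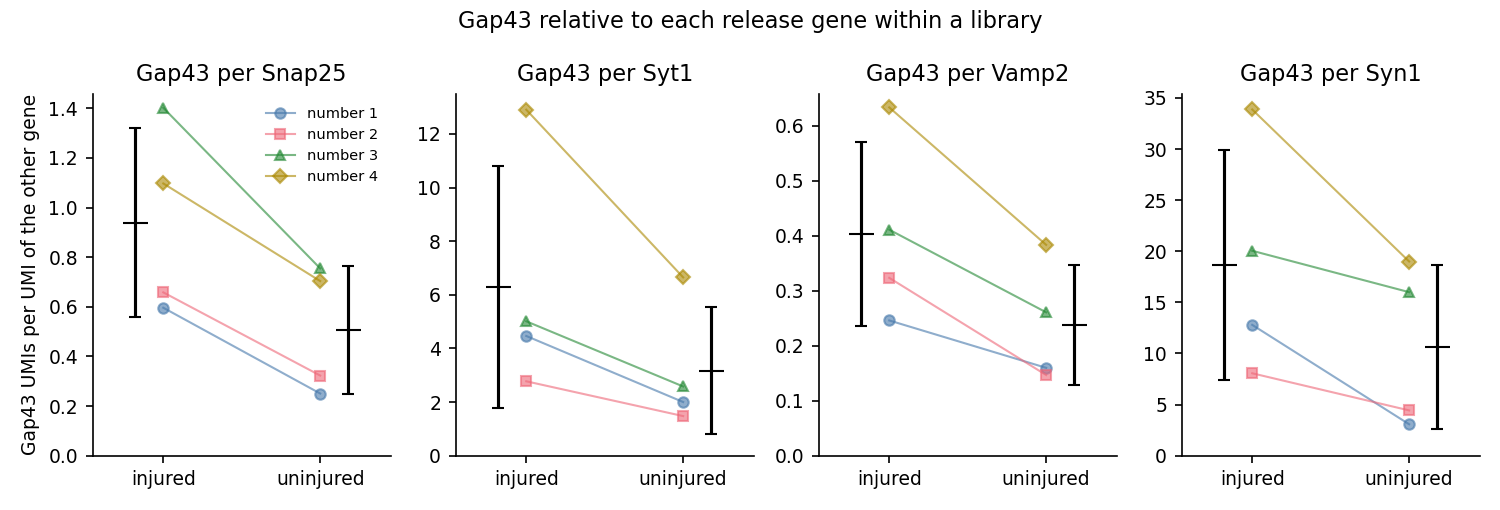
Gap43 UMIs per UMI of each release gene (vertical axis, from 0, its own range in each panel) in the 4 injured and the 4 uninjured libraries. Lines join libraries of the same number and black bars give the group mean and SD. Every line is higher at its injured end, while numbers 3 and 4 stand above 1 and 2 in both groups for each of the 4 release genes.

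The tested genes whose pattern over the 8 libraries was most like Snap25, by Pearson r of log2 CPM, were ENSRNOG00000010812 (r = 0.96) and ENSRNOG00000053362 (r = 0.95). ENSRNOG00000010812 had 54.1 ± 6.35 CPM in the injured libraries and 85.7 ± 20.6 CPM in the uninjured ones, and ENSRNOG00000053362 had 354 ± 29.5 CPM in the injured libraries and 453 ± 84.3 CPM in the uninjured ones (SD, n = 4 each). For Gap43 they were ENSRNOG00000008639 (r = 0.98), at 61.8 ± 28.6 CPM in the injured libraries and 41.5 ± 24.9 CPM in the uninjured ones, and ENSRNOG00000018468 (r = 0.97), at 60.6 ± 32.8 CPM in the injured libraries and 37.1 ± 31.3 CPM in the uninjured ones (SD, n = 4 each). None of the 4 passed the edgeR test without the block (adjusted p from 0.188 to 0.747). No gene name is paired with these identifiers in the files. They were picked for the highest r among all tested genes other than the 5. Group, number and depth all differ among the libraries, so the r values only describe likeness.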

How the data were processed

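RNA of rat spinal cord was measured in 4 injured and 4 uninjured libraries by CEL-Seq2 on an Illumina HiSeq1500, per the labels' protocols. The authors deposited raw UMI counts per Ensembl gene. Alignment and counting named HISAT2 (2.0.4), HTSeq (0.6.0) and Rnor_6.0 in the submitters' processing notes. Annotation release, tag collapsing and strand use are not stated, so antisense overlap cannot be told apart. Groups come from the labels, numbers from the titles, and 0 columns were unmatched. Whether each library is a separate animal is not given, so p-values measure only how these libraries vary, which can be technical variation.

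The counts were fitted with edgeR 4.0.16 (R 4.3.3): filterByExpr (minimum count 10, minimum total 15), TMM, glmQLFit and glmQLFTest across 3073 genes with 89.0% of all counts, Benjamini-Hochberg adjusted p below 0.05. Printed levels are CPM of the library total, while fitted changes use TMM. Standard errors are the fitted change divided by the square root of F, and intervals use t quantiles. DESeq2 1.42.0 (all genes, no filterByExpr) and limma 3.58.1 were alternatives. DESeq2 kept its default independent filtering, which gives genes of low mean count no adjusted p. Fits were tested on simulated data that held no effect of the shared number, so that test does not cover the block where pairs deviate together. Within each group all 12 library comparisons differed by more than counting noise (chi-square per degree of freedom 2.21 to 4.91).

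The shared numbers were taken as pairs because the deviations from group means of each same-numbered pair, over 3073 genes, correlated above 0.1 (0.389, 0.297, 0.342 and 0.423 for numbers 1 to 4). Of the 12 differently numbered combinations, injured 2 with uninjured 1 (0.241) and injured 1 with uninjured 2 (0.153) were also above 0.1, below the same-numbered value of all 4 libraries involved. No label calls the libraries paired. Members were matched by identifier. The named genes are the 5 members and the 2 genes most like Snap25 and Gap43 each. Lists of release machinery, growth cone and cell type genes were not used, because 0 identifiers were paired with symbols. Promoters (3 of 5 members) come from RefSeq, GRCr8, matched by symbol. Members and lists were chosen with earlier results of these data known.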

Additional observations from a re-analysis of the deposited data

How the results depend on the processing

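No direction of the 5 genes changed in any alternative, 28 for Syn1 and 30 for each of the others. Calls depended on the block on the shared numbers, given with log2 fold changes here. DESeq2 without the block called Snap25 (-0.65). With the replicate block, edgeR called Snap25 (-0.65), Syt1 (-0.69) and Vamp2 (-0.48), and with the block and library totals Snap25 (-0.52), Syt1 (-0.56) and Gap43 (0.44). Both fits were planned as alternatives, but the pairing they use was read from the counts and is in no label. The following were chosen after seeing the data, all with the block. DESeq2 called Snap25 (-0.65) and Vamp2 (-0.47), and gave Syn1 no adjusted p. Snap25, Syt1 and Vamp2 were called by limma-voom (-0.66, -0.70 and -0.48), after thinning (-0.64, -0.77 and -0.47), after correction for tag collisions (-0.65, -0.69 and -0.44), by robust fits (-0.65, -0.69 and -0.48) and by edgeR's older quasi-likelihood fit (-0.65, -0.69 and -0.48). Leaving out 1 library without the block, or 1 pair with it, gave -0.76 to -0.52 for Snap25, -0.90 to -0.38 for Syt1, -0.67 to -0.32 for Vamp2, -1.02 to -0.33 for Syn1 and 0.08 to 0.55 for Gap43. Without the block, leaving out 1 library called 0 of the 5 in edgeR, with 1 to 4 at an unadjusted p under 0.05. Of all tested genes, 346 of 3107 (without injured 1) to 551 of 3462 (without uninjured 4) had such a p in these fits. Syn1 had no value at a mean count of at least 20, which it did not reach.

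Against 70 genes called higher and 6 called lower of 3073 tested, the block gave 208 and 140 of 3073. No filter on low counts gave 225 and 13 of 12612. Some fits tested other numbers of genes, so these counts are not shares of 1 set. The block gave 284 and 65 with library totals, 193 and 165 with limma-voom, and 128 and 76 of 1940 with thinning. It gave 200 and 129 of 3068 with the collision correction, 204 and 151 in robust fits, and 206 and 145 in the older fit. Lower calls alone moved with library totals (3), DESeq2 (19), a mean count of at least 20 (10 of 1717), thinning (3 of 1940) and DESeq2 with the block (35). With 1 library fewer and no block, the fits tested 3107 to 3470 genes. Between 38 and 115 genes were called higher and between 0 and 15 lower. The 0 was in edgeR without injured 1, with 139 lower at an unadjusted p under 0.05. With the block, the counts on all pairs were 208 and 140 of 3073. The calls with 3 pairs were fewest when pair 1 was left out (95 higher, 47 lower, of 2547 tested). They were most when pair 4 was left out (318 higher, 202 lower, of 3493 tested). The causes of these moves were not tested. Depth limits Syn1 most, with 7 to 41 UMIs per library.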
